A study of Mus musculus with 8 samples.

Results

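Heat shock proteins and their chaperone relatives were examined in RNA-seq of cultured mouse retinal astrocytes (AC), as 104 of the 13575 genes of the deposited table. They were picked by a rule on gene symbols, which was set with earlier results of these data known. The rule took in the heat shock proteins (Hsp), the J-domain proteins of families DNAJA to DNAJC, the chaperonin subunits Tcp1 and Cct2 to Cct8, 3 protein disulfide isomerases, the BAG proteins, heat shock factors 1 and 2, the FK506-binding proteins (Fkbp), and 9 further genes of the endoplasmic reticulum (ER) stress response. By the place where each protein is known to work, 61 were grouped as cytosolic or nuclear, 32 as ER and 11 as mitochondrial. The ER group also takes in 5 regulators of the ER stress response, although Atf4, Ddit3 and Xbp1 encode factors that act in the nucleus. The study compared AC of wild-type mice, 4 libraries called Cyp1b1+/+ here, with AC of mice lacking the cytochrome P450 gene Cyp1b1, 4 libraries labelled Cyp1b1-/-. The methods name no agent that differed between the groups. The labels give the strain of the wild-type mice as C57BL/6, and their entries for the other group count upward from it, which may be a slip of entry. Per the study's methods, an isolation pooled the retinas of a litter of mixed-gender mice 4 weeks old. Endothelial cells had been removed with CD31 beads, and the cultures were kept below body temperature in medium with interferon-γ. These conditions were shared by both groups, and nothing says whether the 4 replicates of a group were separate cultures. The p-values therefore measure only the spread between these libraries, which may be technical.

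Chaperones bind unfolded protein chains and keep them from aggregating until they fold or are degraded. In the cytosol, heat shock factor 1 switches on HSP70, HSP110, small heat shock protein and J-domain protein genes when unfolded proteins build up. In the ER, the HSP70 protein BiP, encoded by Hspa5, binds secretory and membrane proteins together with disulfide isomerases and J-domain proteins. Overload of the ER sets off the unfolded protein response through 3 sensors. IRE1 (Ern1) splices Xbp1 mRNA, ATF6 is cleaved to a transcription factor, and PERK raises translation of ATF4, which induces CHOP (Ddit3). Astrocytes secrete matrix proteins and growth factors, so that their ER folding machinery is in constant use.

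Values are counts that the authors scaled between libraries by TMM, the trimmed mean of M values, and rounded to whole numbers, called normalized values here. Their totals were 19261729 to 19370850 in Cyp1b1+/+ and 19491502 to 20134745 in the libraries labelled Cyp1b1-/-. They are not divided by gene length, so a level is compared between libraries and not between genes. Cyp1b1 itself had normalized values of 749, 829, 856 and 882 in the wild-type replicates 1 to 4, whereas those labelled Cyp1b1-/- had 1296, 1276, 1288 and 1368. Its transcript level was thus higher in every library labelled as lacking the gene, and which part of the transcript was read cannot be seen from gene totals. The Y-linked gene Ddx3y was at 0 or 1 in Cyp1b1+/+ and at 1230 to 1324 in the other group, so the sex makeup of the cells differed although the mice are described as of mixed gender, and it cannot be told apart from genotype. Of 12 listed astrocyte markers, 7 were measured. The defining markers Gfap, S100b, Aqp4 and Aldh1l1 were not among the measured genes, while Vim and Nes were high. The measured markers went both ways. Pax2 was at 28 to 39 in Cyp1b1+/+ and at 0 to 1 in the libraries labelled Cyp1b1-/-, and Nes was lower too (log2 fold change -0.23, adjusted p = 0.00189). Gja1 and Vim were higher (0.95 and 0.46, adjusted p = 0.0129 and 6.40e-04), while Slc1a2, Slc1a3 and Glul did not pass (0.38, 0.14 and -0.03). The summed list was at 94219 to 101475 and at 117584 to 147596, but Vim makes up most of that sum. Summed markers of pericytes and smooth muscle (5 of 11 measured, led by Acta2 and Tagln) ranged from 39782 to 47395 in Cyp1b1+/+. They reached 68950 in replicate 2 labelled Cyp1b1-/- against 42295 to 45594 in its other replicates. Acta2 and Tagln make up most of that sum and did not pass, while Notch3 was lower (-1.39), as was Pdgfrb (725 to 883 against 301 to 738, adjusted p = 0.00445), and Cnn1 was higher (1.25). Summed endothelial markers (3 of 10) were at 311 to 367 in Cyp1b1+/+ and at 277 to 304 in the other group, and microglial markers (2 of 9) at 75 to 96 and at 39 to 52, both without overlap. Kdr, Csf1r and Cd68 among them were lower (-0.40, -1.57 and -0.50). Kdr makes up most of the endothelial sum, and Flt1 and Esam did not pass (0.15 and -0.01). Photoreceptor and neuron markers (2 of 11) were at 35 to 62. The part of these cell types in the results below was not tested. In a bulk culture, fewer cells of a kind and less RNA per cell cannot be told apart.

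Promoter windows from 250 bases before to 50 bases after the transcript start were at hand for 85 of the 104 members, from RefSeq on GRCm38.p6. The ER stress response element was searched as CCAAT and CCACG with 9 bases between them, on both strands, which is the site at which cleaved ATF6 and spliced XBP1 are known to act. It was found in 5 of 26 ER members (19.2%), in 0 of 51 cytosolic members and in 37 of 27025 genes of the promoter table (0.137%). The ER members take in genes chosen as part of the ER stress response, so their share is not independent of that choice. The 5 were Hspa5, Hsp90b1, Pdia6, Creld2 and Dnajc3. They are shown because their genes, described below, did not all move alike. Capitals mark the element, and each run is given 5′ to 3′ along the gene's strand.
Hspa5 promoter at chr2:34772015-34772053 (+ strand, positions -75 to -37 from the start): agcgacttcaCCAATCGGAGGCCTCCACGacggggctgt
Pdia6 promoter at chr12:17266481-17266519 (+ strand, positions -108 to -70 from the start): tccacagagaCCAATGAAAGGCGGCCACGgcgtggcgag
Creld2 promoter at chr15:88819510-88819548 (+ strand, positions -136 to -98 from the start): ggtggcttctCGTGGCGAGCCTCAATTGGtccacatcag
Dnajc3 promoter at chr14:118937817-118937855 (+ strand, positions -115 to -77 from the start): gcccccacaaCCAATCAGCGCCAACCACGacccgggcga
Hsp90b1 promoter at chr10:86705523-86705666 (- strand, positions -222 to -79 from the start): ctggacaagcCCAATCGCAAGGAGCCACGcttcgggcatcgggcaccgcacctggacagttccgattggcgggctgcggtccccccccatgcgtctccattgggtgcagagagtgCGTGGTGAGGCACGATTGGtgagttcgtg
In Hspa5, Pdia6 and Dnajc3 the element was read in the CCAAT to CCACG direction, in Creld2 on the opposite strand, and Hsp90b1 held 2 copies, 1 on each strand. The heat shock element, to which heat shock factors bind, was searched as 3 units alternating between GAA and TTC with 2 bases between neighbours, on both strands. It lay in 2 of 51 cytosolic members (3.92%, Hsph1 and Dnajb6), in 0 of 26 ER members and in 179 of the 27025 genes (0.662%). Among 8 mitochondrial members with a window, Hspd1 and Hspe1 held it (25%). These are neighbours transcribed away from each other, and both windows take in the same site, which is shown once, along the strand of Hspe1, with its overlapping matches in capitals.
Hspe1 promoter at chr1:55088049-55088086 (+ strand, positions -99 to -62 from the start): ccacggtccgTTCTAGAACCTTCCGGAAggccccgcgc
Of the other elements searched, ATTGG and CCACG with 1 base between lay in Dnajb11 only (0.0444% of all genes), TGACGTGG in Dnajc25 and Fkbp1b (0.714%), and TGATGNAAT, the composite site of ATF4 and C/EBP factors, in no member (1.08%). A match describes the letters of a window, not a bound site. The windows are short, so a missing match says only that these letters were not there.

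Over all 13575 genes, limma on log2(value + 1) called 7285 (53.7%) at a Benjamini-Hochberg adjusted p under 0.05. In the libraries labelled Cyp1b1-/-, 3636 of all genes (26.8%) had risen and 3649 (26.9%) had fallen. Among the 104 members 25 were higher, 33 lower and 46 did not pass, so that 55.8% were called, near the share of all genes. The groups did not overlap in 52 members (50%), against 49.3% of all genes. Shifts were small, with a median absolute log2 fold change of 0.17 in the members and 0.22 over all genes. Of the 104 members 10 passed with a change over 1.5-fold, and of all 13575 genes 2088 did. Of the 32 ER members 15 were lower (46.9%) and 7 higher, with a median log2 fold change of -0.18 against -0.0004 over all genes. Without the 5 regulators of the stress response, 15 of 27 were lower (55.6%) and 5 higher, with a median of -0.27. Of the 61 cytosolic members 15 were higher and 15 lower, with a median of 0.03. Of the 11 mitochondrial members 3 were higher and 3 lower, with a median of 0.03. These counts and medians describe the lists, and the difference between compartments was not tested. Counts of the smaller groups below likewise only describe them, beside 26.8% of all genes higher and 26.9% lower.

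**Figure D1:**
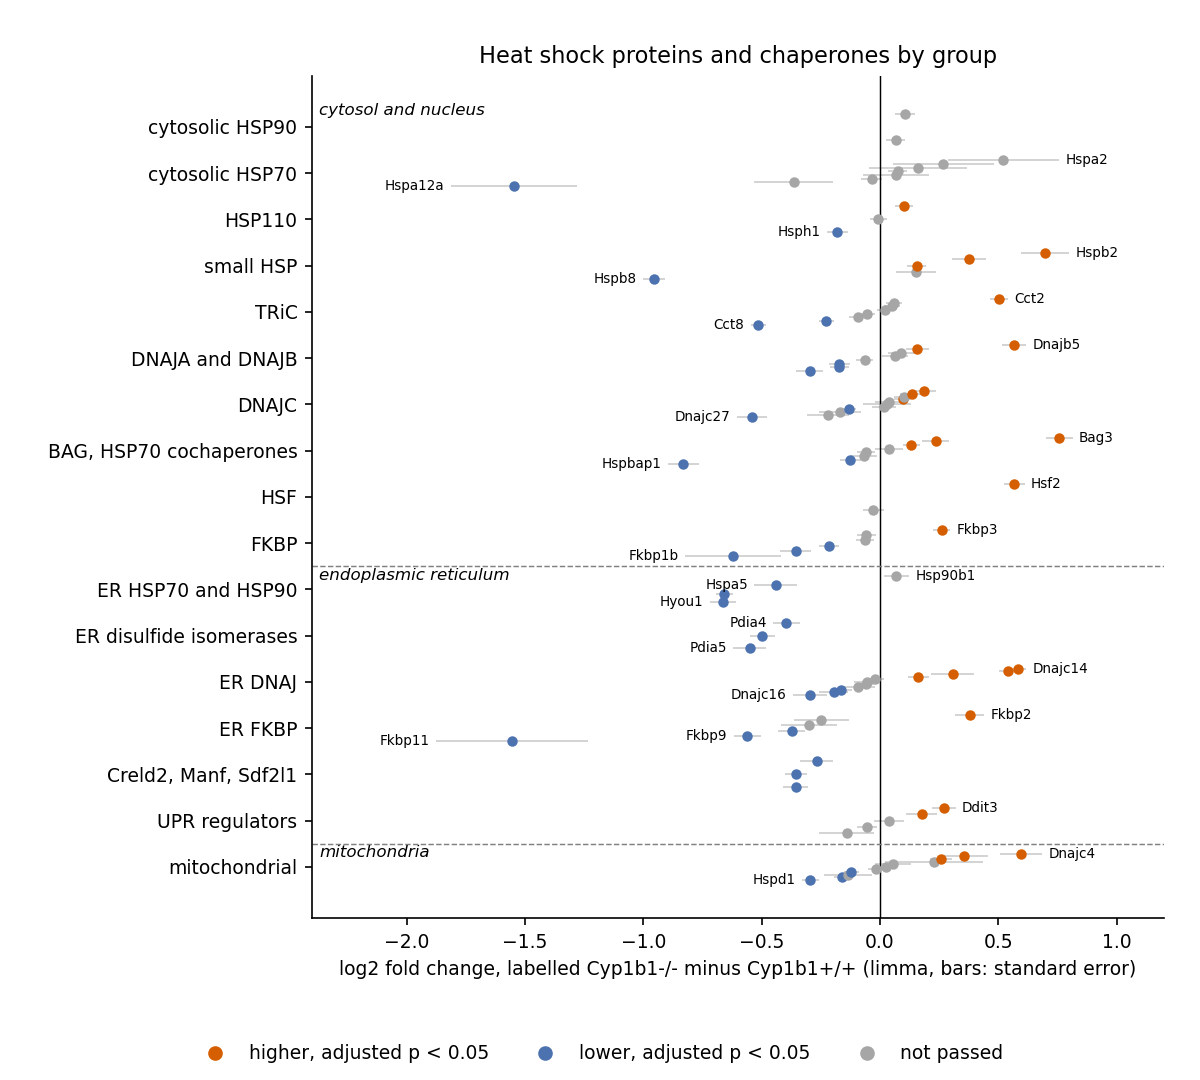
Log2 fold change, libraries labelled Cyp1b1-/- minus Cyp1b1+/+ (limma, with its standard error), of each of the 104 members, set out by compartment and functional group, in orange where higher and blue where lower at an adjusted p under 0.05 and in grey otherwise. The ER HSP70 proteins, disulfide isomerases and Creld2, Manf and Sdf2l1 lie below 0 except Hsp90b1 at 0.07, while the cytosolic groups spread to both sides, from -1.55 for Hspa12a to 0.76 for Bag3.

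Within the ER, the transcripts of all 3 HSP70 proteins fell, and that of the HSP90 protein did not pass the test. Hspa5 (chr2:34771970-34777547) encodes BiP, the central HSP70 of the ER and the keeper of its stress sensors. The 4 Cyp1b1+/+ libraries had normalized values of 22110, 26186, 25510 and 25017, listed as replicates 1 to 4 here and throughout, and those labelled Cyp1b1-/- had 15953, 21941, 17851 and 17445. Replicate 2 labelled Cyp1b1-/- came close to Cyp1b1+/+ replicate 1, the lowest of that group, but the groups did not overlap (log2 fold change -0.44, SE 0.09, adjusted p = 0.00217). Hyou1 (chr9:44379490-44392369), the nucleotide exchange factor GRP170 that resets BiP, had values of 5795, 6578, 6831 and 6449 and, in the group labelled Cyp1b1-/-, of 3879, 3844, 4282 and 4163. All 4 of these were well below every Cyp1b1+/+ library (log2 fold change -0.66, SE 0.05, adjusted p = 4.25e-06). Hspa13, a short HSP70 protein found in microsomes, was at 2612, 2797, 2583 and 2645 and then at 1661, 1658, 1762 and 1660, also without overlap (log2 fold change -0.66, SE 0.04, adjusted p = 2.74e-07). Hsp90b1 encodes GRP94, the HSP90 of the ER, whose client proteins include integrins. It was at 27483, 30802, 30428 and 29870 in Cyp1b1+/+ and at 28435, 32639, 32301 and 31127 in the other group, with overlapping ranges and no passed test (log2 fold change 0.07, SE 0.05, adjusted p = 0.307). The overlapping 1810014B01Rik was higher (0.23). The ratio of Hsp90b1 to Hspa5 within a library, which does not depend on the scaling, was 1.202 ± 0.0288 (SD, n = 4) in Cyp1b1+/+ and 1.716 ± 0.153 in the libraries labelled Cyp1b1-/-. In the latter it was lowest, at 1.488, in replicate 2. That library also held the highest Acta2 and Tagln, and the part of those cells or RNA in its Hspa5 level was not tested. Hspa5 and Hsp90b1 both carry the ER stress response element shown above.

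Disulfide isomerases form and reshuffle the disulfide bonds of secreted proteins, and all 3 members of this kind fell. Pdia6, which works with BiP, had normalized values of 8284, 9642, 9677 and 9379 in Cyp1b1+/+ and of 6402, 6250, 6797 and 6708 in those labelled Cyp1b1-/- (log2 fold change -0.50, SE 0.05, adjusted p = 2.42e-05). Pdia4, known as ERp72, was at 3305, 3881, 3873 and 3666 and at 2597, 2953, 2815 and 2816 (log2 fold change -0.40, SE 0.06, adjusted p = 2.11e-04). Pdia5 was at 786, 944, 953 and 904 and at 605, 640, 637 and 561 (log2 fold change -0.55, SE 0.07, adjusted p = 7.29e-05). In none of the 3 did the groups overlap, and Cyp1b1+/+ replicate 1 was the lowest of its group each time. Summed, the 3 isomerases were at 12375 to 14503 in Cyp1b1+/+ and at 9604 to 10249 in the other group, a ratio of means of 0.719. Creld2, Manf and Sdf2l1 encode soluble ER proteins that are well known to be induced by ER stress, Manf also being a secreted survival factor for neurons. Manf was at 1830, 2103, 1989 and 2069 in Cyp1b1+/+ and at 1544, 1615, 1564 and 1517 in the libraries labelled Cyp1b1-/- (log2 fold change -0.35, SE 0.05, adjusted p = 9.73e-05). The overlapping gene Vprbp was lower as well (-0.21). Creld2 was at 821, 896, 933 and 894 against 679, 646, 710 and 732 (log2 fold change -0.36, SE 0.05, adjusted p = 2.55e-04). Sdf2l1, a partner of the J-domain protein Dnajb11, was at 285, 352, 325 and 342 against 278, 268, 269 and 265 (log2 fold change -0.27, SE 0.07, adjusted p = 0.00868). Each of the 3 was lower in all 4 libraries labelled Cyp1b1-/- than in any Cyp1b1+/+ library.

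**Figure D2:**
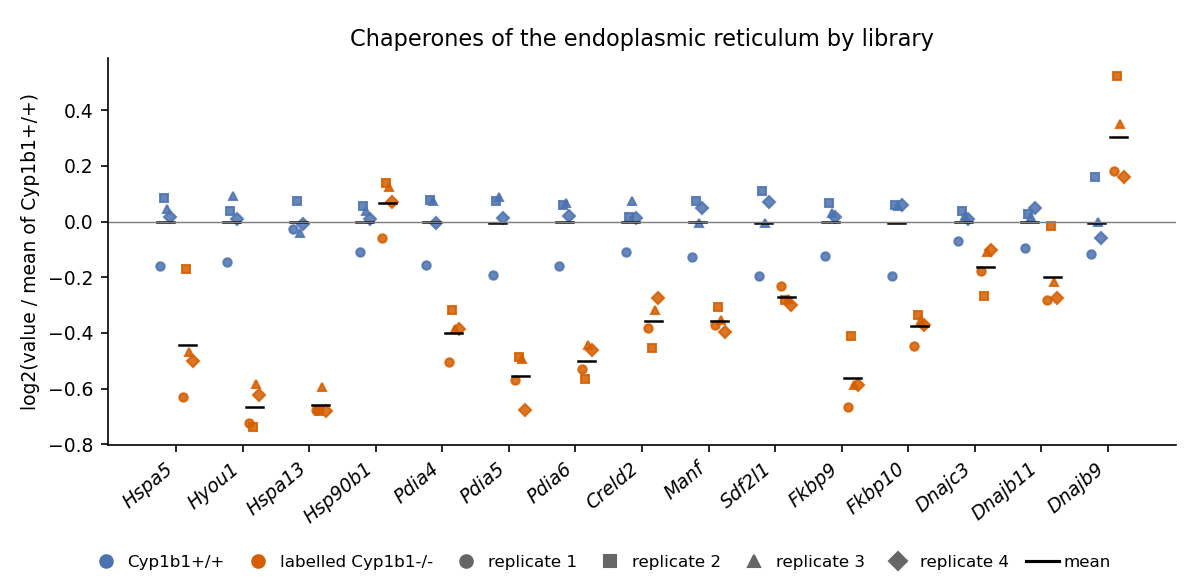
Log2 ratio of each library's normalized value to the mean of Cyp1b1+/+ for chaperones and isomerases of the ER lumen, with blue for Cyp1b1+/+, orange for libraries labelled Cyp1b1-/-, marker shapes for replicates 1 to 4 and black lines for group means. Most genes sit below 0 in orange, Hsp90b1 spans the line and Dnajb9 lies above it, and the orange square of replicate 2 is the highest of its group in Hspa5 (21941) and Fkbp9 (4131).

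The ER peptidyl-prolyl isomerases of the FKBP family, several of which fold collagen chains, went both ways. Fkbp9 was at 5040, 5747, 5610 and 5551 in Cyp1b1+/+ and at 3458, 4131, 3655 and 3650 in the libraries labelled Cyp1b1-/- (log2 fold change -0.56, SE 0.06, adjusted p = 2.11e-05). Fkbp10, known as FKBP65 and needed for collagen crosslinking in human bone, was at 6496, 7756, 7735 and 7749 and at 5454, 5893, 5814 and 5748 (log2 fold change -0.37, SE 0.06, adjusted p = 3.59e-04). Both fell without overlap, and Cyp1b1+/+ replicate 1 stood below its group in Fkbp10. Fkbp11 (chr15:98724366-98728198) had the lowest log2 fold change of all 104 members. It was at 143, 146, 161 and 149 against 43, 113, 31 and 42, and replicate 2 labelled Cyp1b1-/- was far above the rest of its group (log2 fold change -1.55, SE 0.32, adjusted p = 0.00216). Fkbp2 rose, from 360, 343, 327 and 339 to 452, 488, 414 and 430 (log2 fold change 0.38, SE 0.06, adjusted p = 4.26e-04). Fkbp7 and Fkbp14 had log2 fold changes of -0.30 and -0.25 that did not pass (adjusted p = 0.0556 and 0.0978), and both passed when replicate 2 labelled Cyp1b1-/- was left out (-0.36 and -0.37, adjusted p = 0.0145 and 0.0011).

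J-domain proteins stimulate the ATP use of HSP70 proteins, and of the 11 in the ER 4 rose and 3 fell. Among all genes 26.8% were higher and 26.9% lower. Dnajc14, of the ER membrane, was at 1259, 1299, 1215 and 1277 in Cyp1b1+/+ and at 1922, 1845, 1938 and 1871 in the libraries labelled Cyp1b1-/- (log2 fold change 0.58, SE 0.03, adjusted p = 3.54e-07). The overlapping genes Ormdl2, Sarnp and Tmem198b were also higher (0.54, 0.61 and 0.32), and how reads were split among them is not known. Dnajb12, a membrane-anchored partner of cytosolic HSP70 in ER-associated degradation, was at 876, 884, 958 and 913 against 1338, 1325, 1330 and 1287 (log2 fold change 0.54, SE 0.04, adjusted p = 1.31e-06). These were the largest rises among ER members. Dnajb14, the paralog of Dnajb12, was at 994 to 1028 in Cyp1b1+/+ and at 940 to 1031 in the other group and did not pass (log2 fold change -0.02, SE 0.04, adjusted p = 0.651). Dnajb9, the lumenal repressor of IRE1 known as ERdj4, was at 249, 302, 270 and 259 and at 306, 388, 344 and 302, with the groups meeting at 302 (log2 fold change 0.31, SE 0.09, adjusted p = 0.0169). It was at 0.20 without Cyp1b1+/+ replicate 1 and replicate 2 labelled Cyp1b1-/-, a choice made after seeing the data. Dnajb9 passed in that fit and in every other. Dnajc1 rose less (log2 fold change 0.16, SE 0.05, adjusted p = 0.0121). Of those that fell, Dnajc16 was at 735, 869, 893 and 820 against 605, 679, 729 and 684 (log2 fold change -0.30, SE 0.07, adjusted p = 0.0056). Dnajc3, the lumenal cochaperone p58IPK whose promoter holds the ER stress response element, fell slightly (log2 fold change -0.16, SE 0.04, adjusted p = 0.00872). Dnajb11, the BiP cochaperone ERdj3, fell with overlapping groups (log2 fold change -0.20, SE 0.06, adjusted p = 0.0178), and it no longer passed without replicate 1 or 4 labelled Cyp1b1-/- or Cyp1b1+/+ replicate 4 (adjusted p = 0.0543, 0.0535 and 0.0527). Dnajc10, Dnajc18 and Dnajc25 lay between -0.09 and -0.05 on the log2 scale and did not pass.

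Of the 5 regulators of the unfolded protein response among the members 2 rose, none fell and 3 did not pass. The shares of all genes were 26.8% higher and 26.9% lower. Ddit3 (chr10:127290774-127296288), which encodes the death-promoting factor CHOP, was at 496, 534, 510 and 508 in Cyp1b1+/+ and at 589, 583, 644 and 655 in the libraries labelled Cyp1b1-/-. It rose without overlap (log2 fold change 0.27, SE 0.05, adjusted p = 0.00133). The overlapping gene Mars was also higher (0.35). Atf4, the amino acid and stress response factor upstream of CHOP, was at 4416, 4679, 4353 and 4540 and at 5167, 5840, 4631 and 4762, with overlap (log2 fold change 0.18, SE 0.07, adjusted p = 0.0429). It did not pass without replicate 1 labelled Cyp1b1-/- or without any 1 of the Cyp1b1+/+ replicates (adjusted p from 0.0548 to 0.103), and without replicate 2 labelled Cyp1b1-/- its log2 fold change was 0.11. Xbp1 was at 560, 621, 584 and 554 in Cyp1b1+/+ and at 456, 693, 473 and 508 in the other group and did not pass (log2 fold change -0.14, SE 0.12, adjusted p = 0.324). Replicate 2 labelled Cyp1b1-/- was the highest of all 8 libraries and the other 3 of its group the lowest, so that the fit without that library gave -0.27 on the log2 scale (adjusted p = 0.00112). Atf6 and Ern1 had overlapping values, of 2288 to 2570 and 713 to 883 in Cyp1b1+/+ and of 2225 to 2403 and 798 to 868 in the other group. Neither passed (log2 fold changes of -0.06 and 0.04, adjusted p = 0.278 and 0.636). Splicing of Xbp1, cleavage of ATF6 and translation of Atf4 are not seen in gene totals.

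**Figure D3:**
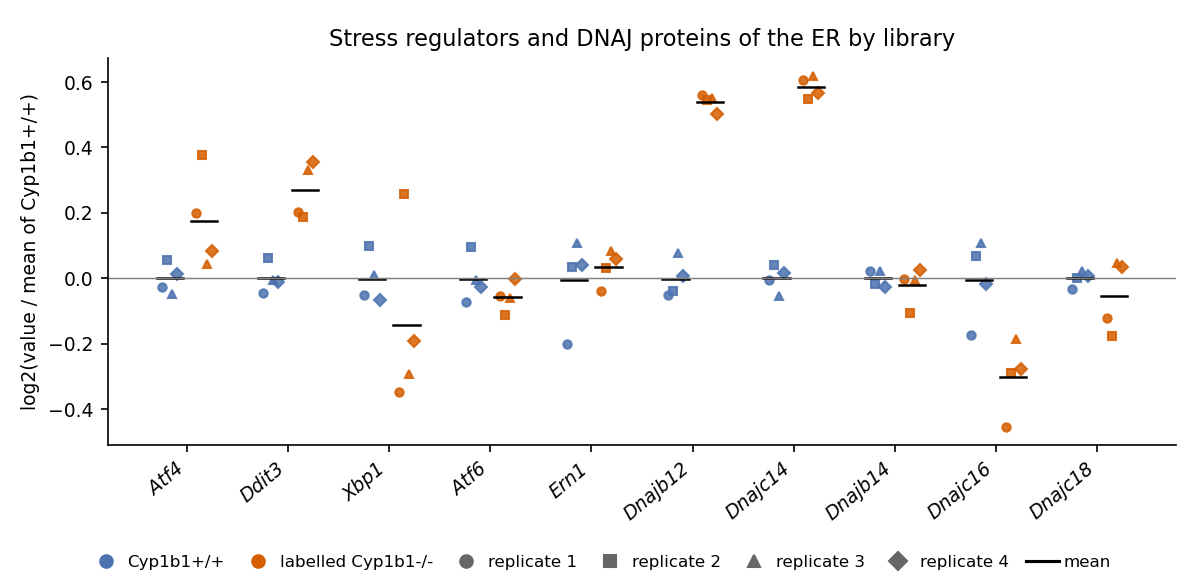
Log2 ratio of each library's normalized value to the mean of Cyp1b1+/+ for 5 stress regulators and 5 J-domain proteins of the ER membrane, with blue for Cyp1b1+/+, orange for libraries labelled Cyp1b1-/-, marker shapes for replicates 1 to 4 and black lines for group means. Dnajb12, Dnajc14 and Ddit3 lie above all blue points, and for Xbp1 the orange square of replicate 2 (693) lies above every other library while the other orange points (456 to 508) lie below.

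Other genes of these pathways, listed from textbook knowledge and outside the 104, were counted beside them. These lists too were made with earlier results of these data known. Of 34 measured genes of ER folding, glycoprotein quality control and degradation, 15 were lower (44.1%), 4 higher (11.8%) and 15 did not pass. Over all genes 26.9% were lower and 26.8% higher. The median log2 fold change of the 34 was -0.10. Among them the collagen prolyl hydroxylase subunit P4hb was at 18077, 20911, 20540 and 20373 in Cyp1b1+/+ and at 12947, 13616, 13752 and 13678 in the libraries labelled Cyp1b1-/- (log2 fold change -0.56, SE 0.05, adjusted p = 5.77e-06). The lectin chaperone Calr, whose promoter window also held the ER stress response element, was at 23693, 26997, 26547 and 25932 against 16221, 18451, 17404 and 17186 (log2 fold change -0.57, SE 0.05, adjusted p = 8.50e-06). Sec63, the J-domain protein of the translocon, rose from 5702, 5968, 5942 and 5887 to 7859, 8393, 8415 and 8519 (log2 fold change 0.50, SE 0.03, adjusted p = 1.15e-06). Txndc5, a further thioredoxin-domain isomerase, fell (log2 fold change -0.46, SE 0.05, adjusted p = 1.96e-05). Os9, a lectin of ER-associated degradation, rose from 1416, 1585, 1581 and 1520 to 1840, 1996, 2047 and 1999 (log2 fold change 0.37, SE 0.05, adjusted p = 8.98e-05). Of 28 measured genes downstream of or around ATF4 and CHOP, 8 were higher (28.6%) and 9 lower (32.1%), near the shares of all genes. The stress protein Nupr1 rose from 134, 151, 127 and 115 to 490, 501, 460 and 485 (log2 fold change 1.88, SE 0.08, adjusted p = 6.28e-08). The mitochondrial serine enzyme Shmt2 rose (log2 fold change 0.56, SE 0.03, adjusted p = 5.88e-07), whereas the mTORC1 inhibitor Sesn2 fell (log2 fold change -0.56, SE 0.04, adjusted p = 1.36e-06). Outside the members, the ER stress response element lay in the windows of 10 measured genes, with a median log2 fold change of -0.04. Of these 5 were lower, 3 higher and 2 did not pass, while 26.9% of all genes were lower and 26.8% higher.

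Cytosolic HSP90 and the constitutive HSP70, the most abundant chaperones of the cell, did not pass the test, and each had a small positive log2 fold change. Hsp90ab1, the constitutive HSP90, was at 59725, 56071, 56707 and 55514 in Cyp1b1+/+ and at 62152, 59678, 61586 and 61672 in the libraries labelled Cyp1b1-/-, and did not pass (log2 fold change 0.10, SE 0.04, adjusted p = 0.0571). It passed under several other settings, among them without Cyp1b1+/+ replicate 1 (0.13, adjusted p = 0.0104) and without replicate 2 labelled Cyp1b1-/- (0.12, adjusted p = 0.0319). Hsp90aa1, the stress-responsive HSP90, was at 34283, 31100, 31836 and 31851 and at 34189, 33748, 33455 and 33717 (log2 fold change 0.07, SE 0.04, adjusted p = 0.18). Hspa8, which encodes the constitutive HSP70 HSC70, was at 57156, 53299, 53175 and 53681 and at 57680, 57261, 56507 and 57402, with Cyp1b1+/+ replicate 1 alone among the values of the other group (log2 fold change 0.08, SE 0.04, adjusted p = 0.146). Without that library Hsp90aa1 and Hspa8 passed as well (each 0.10 higher, adjusted p = 0.019 and 0.0222).

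Genes known to be induced by heat went different ways, with Bag3 and Hspb1, described below, higher, Hsph1 lower, and Hspa1a, Hspa1b and Dnajb1 not past the test. Hspa1a and Hspa1b (chr17:34969190-34972156 and chr17:34956436-34959238) encode the inducible HSP70 in near-identical copies, so that the split of reads between them is uncertain. Hspa1a was at 106, 101, 141 and 125 in Cyp1b1+/+ and at 140, 220, 132 and 98 in the libraries labelled Cyp1b1-/- (log2 fold change 0.27, SE 0.21, adjusted p = 0.316). Hspa1b was at 613, 958, 934 and 1077 and at 945, 1445, 884 and 766 (log2 fold change 0.16, SE 0.21, adjusted p = 0.536). In both, replicate 2 labelled Cyp1b1-/- was the highest of the 8 libraries, and the groups overlapped. Without it the log2 fold changes were 0.06 and -0.02, and neither passed. Leaving out that library together with Cyp1b1+/+ replicate 1, a choice made after seeing the data, turned Hspa1b to -0.20 (adjusted p = 0.0245). Hsph1, the HSP110 exchange factor for HSP70 whose promoter window held a heat shock element, fell from 1813, 1682, 1703 and 1706 to 1490, 1630, 1447 and 1531 (log2 fold change -0.18, SE 0.04, adjusted p = 0.00517). Dnajb1, the main J-domain partner of inducible HSP70, was at 854 to 968 and at 901 to 1038 (log2 fold change 0.06, SE 0.05, adjusted p = 0.363). Hspa2, best known from the testis, was at 143, 134, 121 and 161 and at 180, 358, 161 and 154, again highest in replicate 2 (log2 fold change 0.52, SE 0.24, adjusted p = 0.0869), and its log2 fold change was 0.24 without that library. Hspa12a (chr19:58795750-58943654), a distant member of the family found mostly in brain, was low throughout and was the only one of 8 cytosolic HSP70 genes to pass. It was at 43, 24, 29 and 34 in Cyp1b1+/+ and at 9, 15, 8 and 10 in the other group (log2 fold change -1.55, SE 0.27, adjusted p = 7.14e-04). The overlapping gene Eno4 was lower too (-0.63). Hspa4l rose little (log2 fold change 0.10, SE 0.04, adjusted p = 0.0395) and did not pass without replicate 1, 3 or 4 labelled Cyp1b1-/- or Cyp1b1+/+ replicate 2, 3 or 4 (adjusted p from 0.0829 to 0.107). Hspa4, Hspa12b, Hspa14 and Hspa1l did not pass.

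**Figure D4:**
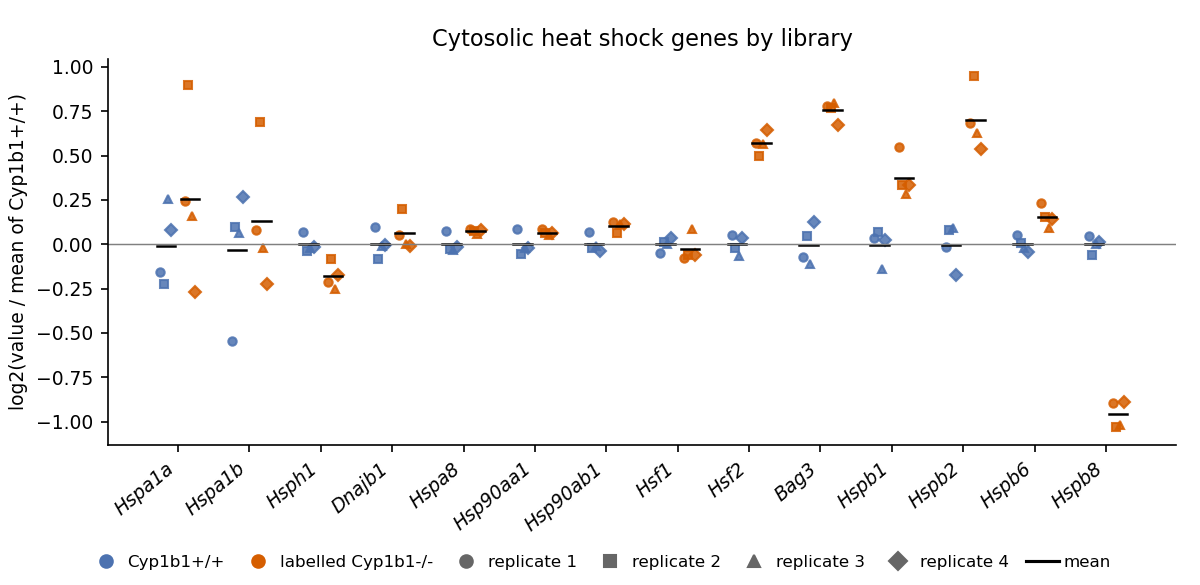
Log2 ratio of each library's normalized value to the mean of Cyp1b1+/+ for heat-inducible and other cytosolic chaperones, cochaperones and heat shock factors, with blue for Cyp1b1+/+, orange for libraries labelled Cyp1b1-/-, marker shapes for replicates 1 to 4 and black lines for group means. Bag3, Hsf2 and Hspb2 lie above and Hspb8 lies below every blue point, while the inducible Hspa1a and Hspa1b overlap between groups with replicate 2 (220 and 1445) on top.

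Small heat shock proteins hold unfolded chains without using ATP, and 4 of the 5 members passed, while 53.7% of all genes did. Hspb8 (chr5:116408491-116422864) fell the most of the group, from 1234, 1149, 1199 and 1207 in Cyp1b1+/+ to 645, 586, 590 and 647 in the libraries labelled Cyp1b1-/- (log2 fold change -0.96, SE 0.05, adjusted p = 1.12e-07). Bag3 (chr7:128523616-128546981) encodes the cochaperone that binds Hspb8 and hands its clients to autophagy, and it is an established target of heat shock factor 1. It rose, from 652, 708, 634 and 747 to 1178, 1169, 1192 and 1090 (log2 fold change 0.76, SE 0.06, adjusted p = 2.03e-06), the highest log2 fold change of all 104 members. The 2 partners thus moved in opposite directions, each without overlap between the groups. Hspb2 (chr9:50751078-50752354), a small heat shock protein of muscle, was at 132, 141, 142 and 118 and at 214, 257, 206 and 193 (log2 fold change 0.70, SE 0.10, adjusted p = 2.28e-04). Its values were low, the neighbouring and overlapping Cryab fell (-0.20), and how reads were split between them is not known. Hspb1, known as HSP25 in mouse and a regulator of actin, rose from 331, 339, 293 and 329 to 473, 407, 393 and 407 (log2 fold change 0.38, SE 0.07, adjusted p = 0.00133). Hspb6, known as HSP20 in smooth muscle, rose less (log2 fold change 0.15, SE 0.04, adjusted p = 0.00977), and Hspb11 did not pass. The ratio of Hspb2 to Hspb8 within a library was 0.112 ± 0.0113 (SD, n = 4) in Cyp1b1+/+ and 0.355 ± 0.0599 in the libraries labelled Cyp1b1-/-.

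Of the heat shock factors, Hsf1, the master factor of the response, was at 745, 778, 771 and 791 in Cyp1b1+/+ and at 732, 739, 820 and 738 in the libraries labelled Cyp1b1-/- and did not pass (log2 fold change -0.03, SE 0.05, adjusted p = 0.632). Hsf2 (chr10:57486385-57513135), which acts in development and can pair with Hsf1, was at 622, 592, 575 and 615 and at 891, 848, 888 and 939, without overlap (log2 fold change 0.57, SE 0.04, adjusted p = 2.84e-06). Among the other BAG proteins and HSP70 cochaperones, Hspbap1, which binds Hspb1, fell from 450, 453, 428 and 484 to 255, 230, 274 and 261 (log2 fold change -0.83, SE 0.07, adjusted p = 3.11e-06). Bag5 and Bag6, the latter a guide for tail-anchored proteins, rose by 0.24 and 0.13 on the log2 scale (adjusted p = 0.00582 and 0.00977). Bag2 fell by 0.12 (adjusted p = 0.0306) and lost its call without replicate 3 or 4 of either group (adjusted p from 0.0586 to 0.0912), while Bag1, Bag4 and Hspbp1 did not pass.

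The chaperonin TRiC is a double ring of 8 different subunits that folds actin and tubulin, and its genes did not move together. Cct2 (chr10:117051001-117063814) was at 14896, 13813, 14053 and 14129 in Cyp1b1+/+ and at 20613, 19131, 20185 and 20691 in the libraries labelled Cyp1b1-/- (log2 fold change 0.50, SE 0.04, adjusted p = 2.60e-06). Cct8 (chr16:87483326-87495873) went the other way, from 14693, 13872, 13826 and 14101 to 10164, 9713, 9897 and 9781 (log2 fold change -0.51, SE 0.03, adjusted p = 6.88e-07). The groups lay far apart in both. The ratio of Cct2 to Cct8 within a library was 1.007 ± 0.00978 (SD, n = 4) in Cyp1b1+/+ and 2.038 ± 0.0599 in the other group. Cct3 fell, from 13509, 12778, 12811 and 12843 to 11090, 11328, 11018 and 10951 (log2 fold change -0.23, SE 0.03, adjusted p = 1.54e-04). Tcp1, Cct4, Cct5, Cct6a and Cct7 had log2 fold changes from -0.09 to 0.06 and did not pass. The summed level of the 8 subunit genes was 87273 to 93277 in Cyp1b1+/+ and 87935 to 90375 in the libraries labelled Cyp1b1-/-, a ratio of means of 0.995. The gene Usp16, which overlaps Cct8, was lower as well (-0.31).

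**Figure D5:**
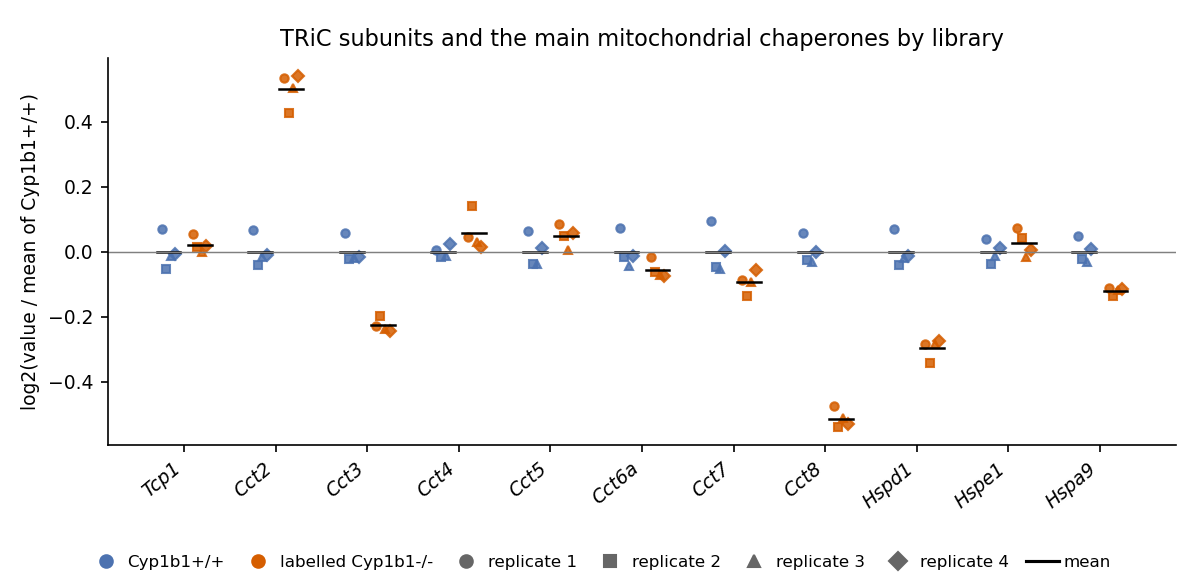
Log2 ratio of each library's normalized value to the mean of Cyp1b1+/+ for the 8 TRiC subunits and 3 mitochondrial chaperones, with blue for Cyp1b1+/+, orange for libraries labelled Cyp1b1-/-, marker shapes for replicates 1 to 4 and black lines for group means. Cct2 lies far above and Cct8 far below the blue points (0.50 and -0.51), the other subunits stay near 0 apart from Cct3 at -0.23, and Hspd1 is lower (-0.30) while its neighbour Hspe1 is at 0.03.

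Among the 8 cytosolic DNAJA and DNAJB proteins 2 rose and 3 fell, beside 26.8% of all genes higher and 26.9% lower. Dnajb5, a J-domain protein that binds HSC70 and a histone deacetylase in heart muscle, was at 379, 400, 376 and 405 in Cyp1b1+/+ and at 560, 608, 596 and 548 in the libraries labelled Cyp1b1-/- (log2 fold change 0.57, SE 0.05, adjusted p = 7.63e-06). Dnaja4 fell, from 357, 376, 359 and 346 to 280, 304, 276 and 311 (log2 fold change -0.30, SE 0.06, adjusted p = 0.00155), while the overlapping Wdr61 was higher (0.15). Dnajb4 and Dnaja1 fell by 0.17 each. Dnajb6, a strong suppressor of polyglutamine aggregation whose window held a heat shock element, rose by 0.16 (adjusted p = 0.0202) and did not pass without replicate 1 labelled Cyp1b1-/- or Cyp1b1+/+ replicate 2 or 3 (adjusted p from 0.0548 to 0.0601). Of 11 cytosolic DNAJC proteins 3 rose and 2 fell. Dnajc27, a Rab-like protein with a J domain, was at 338, 325, 356 and 347 and at 240, 232, 254 and 213 (log2 fold change -0.54, SE 0.07, adjusted p = 6.31e-05). Dnajc13, an endosomal protein, fell by 0.13, and Dnajc7, an HSP90 and HSP70 cochaperone, rose by 0.19, with replicate 2 labelled Cyp1b1-/- at 2780 and its other replicates at 2414 to 2459. Of the genes overlapping Dnajc7, Cnp was lower (-0.22) and Nkiras2 higher (0.19). Dnajc2 and Dnajc8 rose by 0.10 and 0.14 and each lost its call without replicate 1 or 4 labelled Cyp1b1-/- or Cyp1b1+/+ replicate 2, 3 or 4 (adjusted p from 0.0903 to 0.128 for Dnajc2 and from 0.0695 to 0.119 for Dnajc8).

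Of the 6 cytosolic or nuclear FKBP genes 3 fell and 1 rose, beside 26.9% of all genes lower and 26.8% higher. Fkbp5, the glucocorticoid-induced brake on the steroid receptor complex, was at 660, 613, 544 and 606 in Cyp1b1+/+ and at 487, 502, 434 and 467 in the libraries labelled Cyp1b1-/- (log2 fold change -0.36, SE 0.07, adjusted p = 0.00119). Fkbp4, its counterpart in the same HSP90 complex, was at 3209, 3024, 2833 and 3017 and at 2726, 2533, 2511 and 2636 (log2 fold change -0.21, SE 0.04, adjusted p = 0.00185). Both steroid receptor cochaperones were thus lower in all 4 libraries of the group labelled Cyp1b1-/-. Fkbp3, a nuclear member, rose from 1878, 1747, 1746 and 1853 to 2199, 2237, 2085 and 2128 (log2 fold change 0.26, SE 0.04, adjusted p = 2.21e-04), and the overlapping gene Prpf39 fell (-0.23). Fkbp1b, a partner of ryanodine receptors, was low, at 23 to 31 and 14 to 20, and its fall (log2 fold change -0.62, SE 0.20, adjusted p = 0.0256) did not pass without replicate 1 or 3 labelled Cyp1b1-/- or Cyp1b1+/+ replicate 1 or 4 (adjusted p from 0.055 to 0.0663). Fkbp1a and Fkbp15 did not pass.

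In mitochondria, Hspd1 and Hspe1 encode the folding chamber HSP60 and its lid HSP10 and share the promoter region shown above. Hspd1 (chr1:55077835-55088243) was at 22243, 20633, 20945 and 21031 in Cyp1b1+/+ and at 17433, 16711, 17433 and 17543 in the libraries labelled Cyp1b1-/- (log2 fold change -0.30, SE 0.04, adjusted p = 6.41e-05). Hspe1 (chr1:55088132-55091307) was at 2412, 2286, 2326 and 2363 and at 2466, 2417, 2322 and 2353 and did not pass (log2 fold change 0.03, SE 0.03, adjusted p = 0.516). Within a library the ratio of Hspe1 to Hspd1 was 0.111 ± 0.00163 (SD, n = 4) in Cyp1b1+/+ and 0.138 ± 0.00558 in the other group. The pair with a common promoter region thus did not keep its proportion in these values. Hspd1 and Hspe1 overlap at their starts, and how reads there were split between them is not known. Hspa9, the mitochondrial HSP70 mortalin, fell from 24537, 23349, 23213 and 23866 to 21953, 21608, 21869 and 21901 (log2 fold change -0.12, SE 0.03, adjusted p = 0.01). Dnajc4 rose, from 96, 116, 103 and 112 to 159, 177, 160 and 151 (log2 fold change 0.60, SE 0.09, adjusted p = 2.77e-04), and Fkbp8, an outer membrane anchor of BCL2, rose by 0.26 with the overlapping Kxd1 also higher (0.33). Dnajc30 rose by 0.35 and Dnajc11, of the inner membrane organizing system, fell by 0.16. The other 5 mitochondrial members did not pass.

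Libraries of 1 group also differed among themselves by compartment. Cyp1b1+/+ replicate 1 was the lowest of its group in 23 of 32 ER members (71.9%) and the highest in 38 of 61 cytosolic members (62.3%). Over all genes it was lowest in 33.3% and highest in 32.3%. Summed ER members were at 108622 in that library and at 119342 to 123400 in the other Cyp1b1+/+ replicates, against 96083 to 108890 in the libraries labelled Cyp1b1-/-. In that group replicate 2 was the highest in 16 of 32 ER members (50%) and the lowest in 11 (34.4%), against 27.6% and 37.9% of all genes. The closest approach of the groups in the summed ER level was thus between Cyp1b1+/+ replicate 1 and replicate 2 labelled Cyp1b1-/- at 108890, which overlapped. Without those 2 libraries, a choice made after seeing the data, 18 ER members were lower and 7 higher. Over all genes, more were called in that fit too, both higher and lower. Whether the ER members gained more calls than other genes was not tested. Summed cytosolic members were at 296941 to 317749 and at 309173 to 316704, and summed mitochondrial members at 52259 to 55345 and at 47434 to 48337. Hspa9 and Hspd1 make up most of the mitochondrial sum, while by gene 3 mitochondrial members were higher and 3 lower. In the ER sum the largest values were those of Hsp90b1 and Hspa5.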

How the data were processed

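Poly-A RNA of 4 Cyp1b1+/+ and 4 libraries labelled Cyp1b1-/- was sequenced in paired ends. Per the submitters' processing notes and the paper's methods, the authors used bcl2fastq 2.20, aligned reads with STAR 2.5.3a to GRCm38.p6, took gene counts from RSEM, dropped low-abundance genes, and scaled by TMM in edgeR 3.28.0. The deposited score of a gene is this scaled count as the authors rounded it, and is termed the normalized value. The table holds scaled values, from which neither each library's read depth nor its counting error can be read. The strand setting of counting is not given in the sources used here, so an overlapping measured gene that passed the test is named beside a member described with its values. The study's own comparison columns (log2 fold changes, p-values and related statistics) were not used. The strain entries of the labels were not used.

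All 13575 genes were fitted with limma 3.58.1 (R 4.3.3, mean-variance trend, log2(value + 1), no covariates) over 8 libraries, with Benjamini-Hochberg adjustment over the whole table and a threshold of 0.05. The fold change of low genes is understated on this scale. The lowest member mean was 21.5, so no member was lost to the fit. Scripts were tested on simulated data. Coordinates are from GENCODE mouse release 21 on GRCm38, and promoters from RefSeq. Alternatives were pseudocounts of 0.5 and 10, a mean of at least 50, no trend, scaling by median ratios or equal totals, a replicate block and each library left out. Python 3.11.15, pandas 2.3.3, numpy 2.4.6 and matplotlib 3.10.9 made tables and plots. Named genes are, per group, up to 3 with the smallest p and the one with the highest mean, a set of standard stress genes, members changed at least 2-fold, and members with an outlying library. Others were chosen after their values were seen. Members and lists were chosen with earlier results of these data known.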

Additional observations from a re-analysis of the deposited data

Results flagged for a closer look

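In 208 groups of 4 libraries, 1 for each member and genotype, the highest or lowest library stood apart by Dixon's 95% criterion in 11 (5.29%), and chance alone flags about 1 in 20. Of these, 4 were in replicate 2 labelled Cyp1b1-/-, 3 in replicate 3 of that group, 3 in Cyp1b1+/+ replicate 1 and 1 in Cyp1b1+/+ replicate 4. In replicate 2 labelled Cyp1b1-/-, Hspa2 was at 358 (others 154 to 180), Dnajc7 at 2780 (2414 to 2459), Fkbp11 at 113 (31 to 43) and Hspd1 at 16711 (17433 to 17543). In Cyp1b1+/+ replicate 1, Hspa8 was at 57156 (others 53175 to 53681), Cct3 at 13509 (12778 to 12843) and Fkbp10 at 6496 (7735 to 7756). In replicate 3 labelled Cyp1b1-/-, Hsf1 was at 820 (others 732 to 739), Hspa13 at 1762 (1658 to 1661) and Dnajc28 at 27 (all others at 33). In Cyp1b1+/+ replicate 4, Dnajc28 was at 18 (others 29 to 31).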

How the results depend on the processing

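No count of called members or genes moved by over 1.5 times. Over the alternatives and the fits with a library left out, 30 to 37 members were lower and 20 to 28 higher. ER members were lower in 14 to 18 and higher in 6 to 7, and cytosolic members were lower in 13 to 16 and higher in 11 to 19. In the setting added after seeing the data, named below, 38 members were lower and 30 higher. Of the cytosolic members 17 were then lower and 20 higher. Calls over all genes rose in both directions in that setting as well. Of the 58 called members 50 held their call wherever they were fitted, Hspa12a being left out by the minimum mean of 50. The exceptions were Atf4, Bag2, Dnajb11, Dnajb6, Dnajc2, Dnajc8, Fkbp1b and Hspa4l, and no called member turned. Hspa1b, not called, went to -0.20 with Cyp1b1+/+ replicate 1 and replicate 2 labelled Cyp1b1-/- left out together, a setting added after seeing the data. Replicate numbers did not pair the libraries, since the deviations of same-numbered libraries correlated at -0.0226 to -0.0045. With the replicate number as a block 26 members were higher and 31 lower, 7 and 15 in the ER. Rescaling to equal totals lowered the fold changes by about 0.03 on the log2 scale, and rescaling by median ratios moved them by less. How many litters or isolations stand behind a genotype is not stated, and genotype and sex makeup cannot be told apart. Low values limit members such as Fkbp1b, Hspa12a and Dnajc28.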

Other observations

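Of 32 measured genes of cytosolic protein quality control outside the symbol rule, 9 were higher (28.1%), 6 lower (18.8%) and 17 did not pass. Over all genes 26.8% were higher and 26.9% lower. The lens heat shock factor Hsf4 was at 37, 48, 45 and 35 in Cyp1b1+/+ and at 3, 6, 4 and 4 in the libraries labelled Cyp1b1-/- (log2 fold change -3.03, SE 0.26, adjusted p = 6.25e-06). Its values were low, and its groups did not overlap. The HSP70 and tail-anchor cochaperone Sgta rose by 0.46 and the HSP90 activator Ahsa1 by 0.27. HSP90 cochaperones went both ways, with Stip1 and Ptges3 also among the 9 higher. Unc45a and Ppid were among the 6 lower (-0.29 and -0.15, adjusted p = 0.00113 and 0.0145), and Cdc37 did not pass (-0.05). Cryab fell by 0.20.

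Of 15 further mitochondrial chaperones and proteases 2 were higher (13.3%), 4 lower (26.7%) and 9 did not pass, beside 26.8% and 26.9% of all genes. The mitochondrial HSP90 Trap1 was at 2216 to 2375 in Cyp1b1+/+ and at 1832 to 1933 in the other group, and the disaggregase Clpb at 921 to 982 and at 683 to 741, in each case without overlap. The import receptor Tomm70a was at 6274 to 6841 and at 4814 to 5180. The inner membrane protease Spg7 rose, from 1532 to 1742 in Cyp1b1+/+ to 1951 to 2133 in the other group. The heat shock element lay in the windows of 55 measured genes, of which 15 were higher, 19 lower and 21 did not pass, while 26.8% of all genes were higher and 26.9% lower.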
